A study of Mus musculus with 2 samples.

Results

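Barcodes led by Gpnmb, Mmp12, Itgax and H2-M2 numbered 273 among 2523 kept barcodes of sorted mouse liver cells: 14 of 124 from macroscopic lesions and 259 of 2399 from early lesions. Both libraries were searched by the same rule. A barcode was kept with at least 1000 unique molecular identifiers (UMIs, each marking 1 captured RNA molecule), at least 300 genes, at most 25% of UMIs from mitochondrial genes and less than 0.5% of UMIs from Alb. It was a Gpnmb/Mmp12 barcode when the 4 genes summed to 3 or more UMIs and to more than Clec4f, Vsig4, Cd5l and Marco together. Barcodes with 3 or more UMIs of the second set and fewer of the first are called Kupffer barcodes, of which macroscopic lesions held 3, too few to compare, and early lesions 1839. The levels of these 8 genes chose the barcodes and are given as a description, and so is every contrast between the Gpnmb/Mmp12 and Kupffer barcodes. The class is a range of a marker sum, not a proven cell type.

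The series compared cells from macroscopic and early liver tumour lesions of the Rb family triple knockout mouse, a model of hepatocellular carcinoma. The triple knockout removes the retinoblastoma family genes Rb1, Rbl1 and Rbl2, which restrain entry into the cell cycle. The animals were untreated, and liver or visible lesions were digested with enzymes. Both groups were sorted for YFP, the mark of Cre recombinase having acted on floxed alleles. Whether the barcodes read here came from recombined cells was not tested. Early lesions came from 3 mice pooled into 1 library, with no map from barcodes to mice. The number of mice behind the macroscopic library, the ages and what drives Cre are not stated in the labels, and there was no group without the knockout. Each stage is 1 library, so stages cannot be tested against each other. Intervals of levels and ratios are 95% intervals that cover the counting error of UMIs and nothing else. Those of shares rest on the counts of barcodes. Those of list medians rest on the spread among the listed genes.

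Liver macrophages include Kupffer cells, which live in the sinusoids and carry receptors for blood-borne particles, and macrophages that arise from monocytes entering injured or tumour-bearing tissue. Recruited macrophages that take up lipid and cell debris are known for Gpnmb, a glycoprotein of lysosomal membranes, the lipid carrier Fabp5, the lectin Lgals3 and the receptor Trem2. Itgax encodes the integrin CD11c, used as a marker of dendritic cells but also carried by such macrophages. Mmp12 is macrophage elastase, and H2-M2 is a class I-like major histocompatibility complex (MHC) gene.

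The macroscopic library held 256 barcodes with 7271368 UMIs and the early library 3221 barcodes with 12637053 UMIs, and no barcode sequence was shared between them. The Gpnmb/Mmp12 barcodes made up 11.3% of kept barcodes in macroscopic lesions (6.31 to 18.2%) and 10.8% in early lesions (9.58 to 12.1%), intervals that overlap. Their median depth was 26786 UMIs in macroscopic lesions and 7892 UMIs in early lesions, against 2627 UMIs in early Kupffer barcodes. Their summed UMIs were 354831, 2100110 and 6652816. Xist had 0 UMIs in the macroscopic and 1288 in the early Gpnmb/Mmp12 barcodes, and Y-linked genes had 45 and 0 UMIs, so the sex of the animals goes with the stage and cannot be told apart from it. A barcode with these markers was left out by the Alb limit once in each library.

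**Figure D1:**
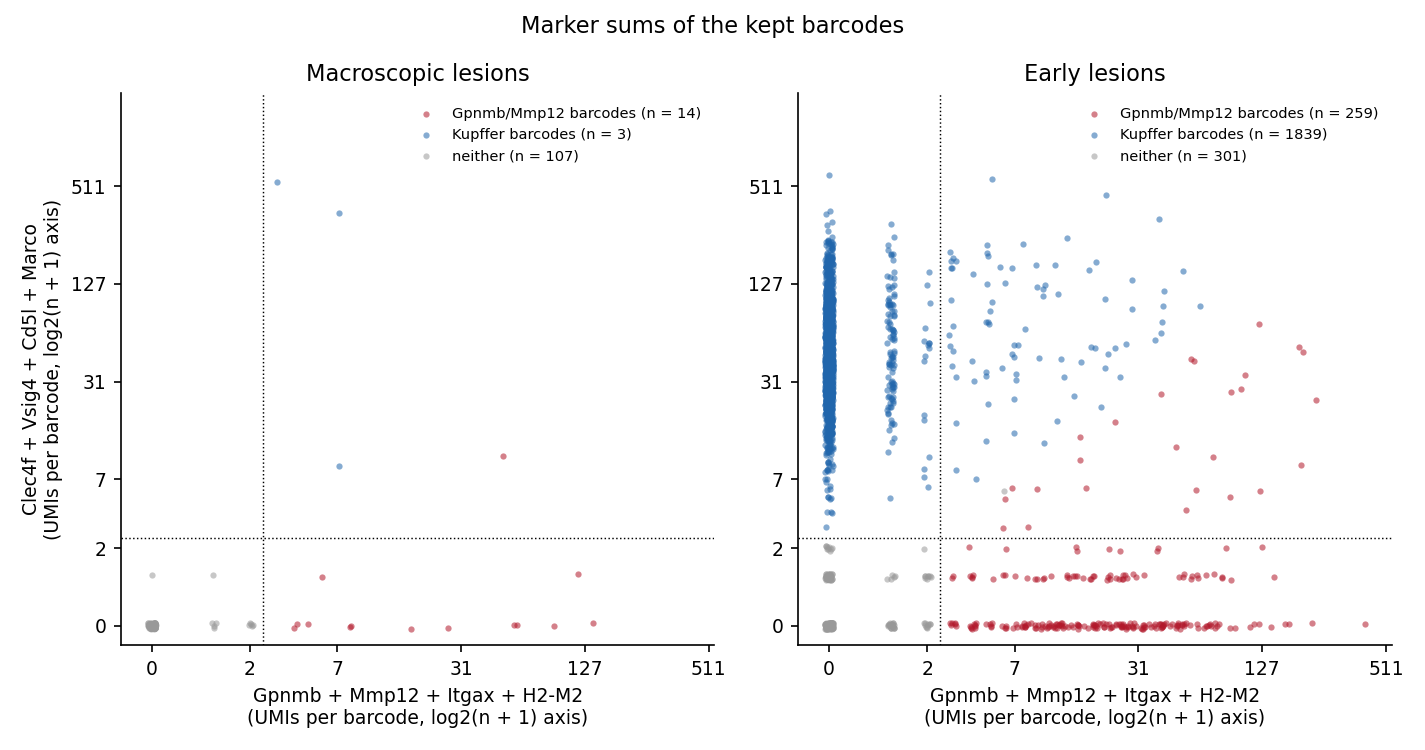
Each point is a kept barcode, with macroscopic lesions on the left and early lesions on the right. The axes give the summed UMIs of Gpnmb, Mmp12, Itgax and H2-M2 and of Clec4f, Vsig4, Cd5l and Marco as log2 of the sum plus 1, and dotted lines mark 3 UMIs. The early library shows 259 Gpnmb/Mmp12 and 1839 Kupffer barcodes, with 111 barcodes at 3 or more UMIs in both sums, while the macroscopic library shows 14 and 3.

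Gpnmb stood at 231 counts per 1000000 UMIs (CPM; 184 to 287) in the macroscopic and 2213 CPM (2150 to 2278) in the early Gpnmb/Mmp12 barcodes, beside 45.8 CPM in early Kupffer barcodes. Mmp12 stood at 606 CPM (528 to 693), 1263 CPM (1215 to 1312) and 98.5 CPM in the same 3 sums, and 1 macroscopic barcode held 51.2% of that library's Mmp12 UMIs. The integrin gene Itgax had 192 CPM in macroscopic and 392 CPM in early members, against 14.3 CPM in early Kupffer barcodes. H2-M2 was at about the same level at both stages, with 640 CPM (559 to 729) and 619 CPM (586 to 654), against 22.5 CPM in Kupffer barcodes. The Kupffer genes ran the other way. The lectin gene Clec4f had 0 UMIs in the macroscopic barcodes (3 UMIs would be 8.45 CPM) and 38.6 CPM in the early ones, against 3709 CPM in early Kupffer barcodes. The complement receptor gene Vsig4 and the scavenger receptor gene Marco were likewise at 0 UMIs in the macroscopic barcodes. Not all early members were free of Kupffer genes: 90 of 259 held at least 1 such UMI and 26 held 3 or more, against 3 and 1 of 14 in macroscopic lesions.

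The 4 genes were spread unevenly over the barcodes. In early lesions a Gpnmb UMI was found in 206 of 259 Gpnmb/Mmp12 barcodes (79.5%), 76 of 1839 Kupffer barcodes (4.13%) and 1 of 73 T/NK barcodes (1.37%). The T/NK barcodes, with a median depth of 2512 UMIs, had at least 3 UMIs of T and natural killer (NK) cell genes and none of Csf1r, and they gauge free RNA. Thinned to 1000 UMIs per barcode, the shares for Gpnmb were 64.5%, 1.31% and 0 of 73, which allows up to 4.11%. Mmp12 was found in 41.7% of early Gpnmb/Mmp12 barcodes (24.3% thinned), Itgax in 202 of 259 (28.2% thinned) and H2-M2 in 54.1% (29.3%), against 0, 2 and 0 of the 73 T/NK barcodes. All 4 genes were detected together in 46 early barcodes, 3 in 80, 2 in 99 and only 1 in 34. In macroscopic lesions Itgax was found in 13 of 14 barcodes (35.7% thinned), Mmp12 in 11 (14.3%), H2-M2 in 8 (35.7%) and Gpnmb in 5 (7.14%). So the macroscopic barcodes were chosen mostly by genes other than Gpnmb.

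A pair of genes that the rule did not use but the label names ran with the sum. Fabp5 had 2266 CPM in macroscopic and 4628 CPM in early members, against 100.3 CPM in early Kupffer barcodes. It was found in 221 of 259 early members (85.3%, thinned 64.1%), 8.05% of Kupffer barcodes (3.26%) and 3 of 73 T/NK barcodes. Lgals3 had 2618 CPM, 4006 CPM and 652 CPM in the 3 sums. Near the threshold the early barcodes were mixed. The 18 barcodes with a sum of 2, just outside, had 1844 CPM of Fabp5, the 8 with a sum of 3, just inside, had 120 CPM, and the 14 with a sum of 4 had 1034 CPM.

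**Figure D2:**
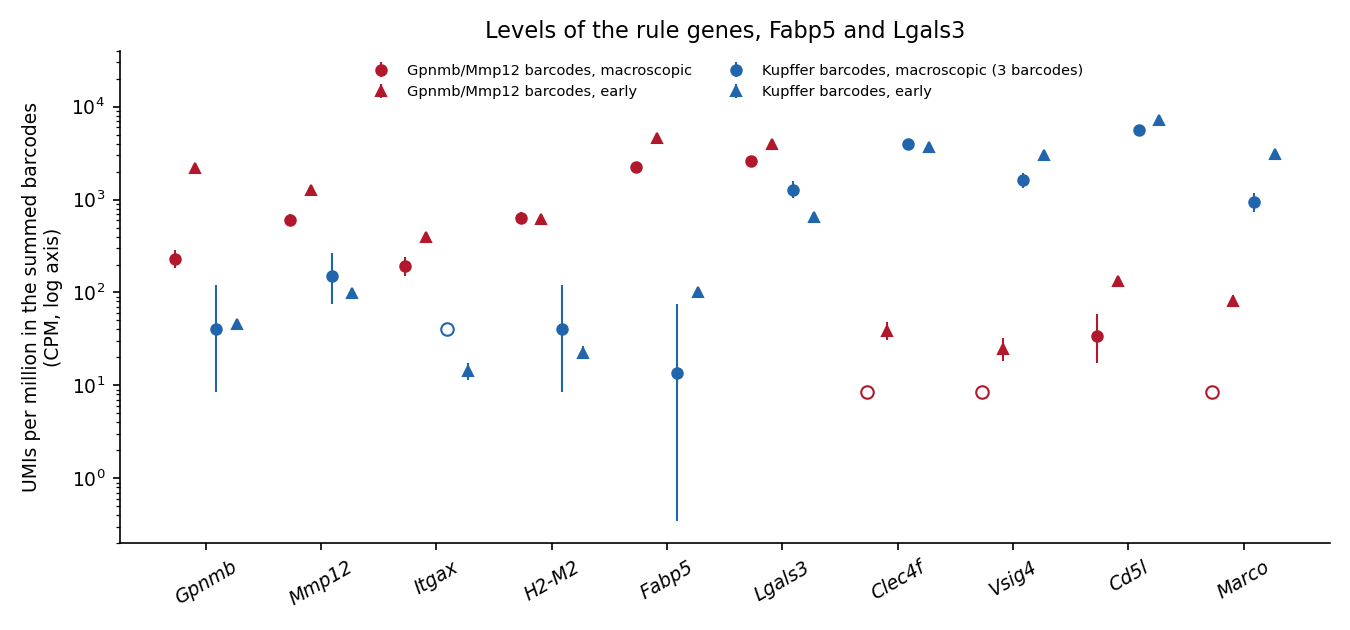
Levels in CPM (log axis) with 95% counting intervals of the 8 genes the rule used, and of Fabp5 and Lgals3. They are drawn for macroscopic and early Gpnmb/Mmp12 barcodes, for early Kupffer barcodes and for the 3 macroscopic Kupffer barcodes, too few to compare. An open circle marks 0 UMIs and is drawn at the level of 3 UMIs. Gpnmb was at 231 CPM in macroscopic and 2213 CPM in early members, while H2-M2 stood at 640 and 619 CPM.

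Because the barcodes were gathered through the RNA of 4 genes, the starts of these genes are shown for those with a motif in common. RefSeq (GRCm38.p6) lists promoters of 300 bases, from 250 before to 50 after each start, for Gpnmb, Mmp12 (at 2 starts), Itgax, H2-M2, Lgals3 and the 4 Kupffer genes. The AP-1 motif, TGACTCA or TGAGTCA on the other strand, is in capitals.
Gpnmb, chr6:49036268-49036567, plus strand: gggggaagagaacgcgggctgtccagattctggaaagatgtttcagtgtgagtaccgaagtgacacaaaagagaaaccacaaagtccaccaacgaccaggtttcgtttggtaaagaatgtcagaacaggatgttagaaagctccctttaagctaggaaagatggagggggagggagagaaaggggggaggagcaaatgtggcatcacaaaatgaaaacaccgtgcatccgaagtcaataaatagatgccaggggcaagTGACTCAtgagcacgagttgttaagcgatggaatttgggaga
Mmp12, the second start, chr9:7347124-7347423, plus strand: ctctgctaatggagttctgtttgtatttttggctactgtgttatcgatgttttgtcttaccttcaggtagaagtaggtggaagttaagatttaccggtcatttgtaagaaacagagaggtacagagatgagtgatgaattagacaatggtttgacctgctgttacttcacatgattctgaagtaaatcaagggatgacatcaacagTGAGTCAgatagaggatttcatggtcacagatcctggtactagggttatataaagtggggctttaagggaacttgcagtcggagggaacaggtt
Itgax, chr7:128129300-128129599, plus strand: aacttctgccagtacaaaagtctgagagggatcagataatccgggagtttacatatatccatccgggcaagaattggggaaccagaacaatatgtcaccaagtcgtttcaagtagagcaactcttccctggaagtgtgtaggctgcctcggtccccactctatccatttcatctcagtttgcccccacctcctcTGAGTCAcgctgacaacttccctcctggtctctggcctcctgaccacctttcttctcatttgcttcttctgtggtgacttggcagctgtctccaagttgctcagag
The motif begins 8 bases after the start of Gpnmb, 44 bases before the second start of Mmp12 and 56 bases before that of Itgax. It is not in these windows of the first Mmp12 start, H2-M2, Lgals3, Clec4f, Vsig4, Cd5l or Marco. Of all 32851 promoters of this length, 5.20% hold it. CACGTG, an E-box, is in none of these windows and in 7.15% of all, and CATGTG, found in the window of the second Mmp12 start and of Marco, is in 14.2% of all. A match describes the letters and shows no binding.

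The label calls these cells monocyte-derived macrophages and dendritic-like cells. Genes of macrophages in general were found in nearly all early members: Csf1r, the receptor for the macrophage growth factor, in 242 of 259 barcodes, the lysosomal glycoprotein gene Cd68 in 246 and the lysozyme gene Lyz2 in 255. In the 73 T/NK barcodes, chosen to lack Csf1r, Cd68 was found in 2 and Lyz2 in 10. A UMI of the complement C1q genes was found in 213 of 259 early members, against 1838 of 1839 Kupffer barcodes. In macroscopic lesions 13 of 14 members had C1q and 12 had Csf1r. Genes that define dendritic cells were sparse. Flt3, the growth factor receptor of dendritic cells, had a UMI in 9 of 259 early members (3.47%, thinned 0%), and Zbtb46, a transcription factor of conventional dendritic cells, in 5 (1.93%), against none of 73 T/NK barcodes for either. Ccr7, the receptor that guides mature dendritic cells to lymph nodes, was found in 8 (3.09%), below its share in T/NK barcodes (8.22%), cells that use it themselves.

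The mature dendritic markers sat in few barcodes. In early lesions 5 of 259 members held 3 or more of the 8 mature dendritic markers, and with them 71.7% of that list's 368 UMIs. These 5 had 48311 CPM of Cd74, 483 CPM of Itgax, 966 CPM of Lyz2 and 0 UMIs of Gpnmb. Type 2 dendritic markers came together in 8 barcodes with 40.7% of their list's UMIs, and 81.2% of the 48 UMIs of Cd209a were in 1 barcode. Type 1 dendritic markers were spread wider: 46 early barcodes with 3 or more of the 8 held 35.0% of their 1030 UMIs, and 11 of 14 macroscopic barcodes held 3 or more. Of these markers Irf8 and Cadm1 were also found in Kupffer barcodes, at 306 and 206 CPM. In macroscopic lesions 1 of 14 barcodes held 11 UMIs of Xcr1, 5 of Clec9a and 8 of Flt3, which mark type 1 dendritic cells, with 0 of C1qa and Fabp5. Of the 7 plasmacytoid dendritic markers Siglech, Ccr9 and Klk1 had 0 UMIs in early members, and 4 were detected. Their sum was 72.4 CPM in early members and 133 CPM in early Kupffer barcodes. At least 1 such UMI was in 44.0% and 32.1% of these barcodes (thinned 8.11% and 11.5%). Siglech had a UMI in 2 of 14 macroscopic members. Of 9 monocyte markers, 8 were detected in early members with 550.4 CPM in sum and Vcan was at 0, and 35 barcodes holding 3 or more of them carried 42.1% of the UMIs. Their sum was 316 CPM in macroscopic members, with Vcan at 0. At least 1 UMI of the type 1 dendritic list was in 88.8% of early members and 80.0% of early Kupffer barcodes. Thinned, these shares were 38.6% and 48.8%, so their order reversed. For the monocyte list the shares were 55.2% and 13.3% (thinned 22.8% and 5.66%). RNA counts give no descent, so the barcodes are called by their genes here, not by the label.

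Within the early library the summed UMIs of the 259 Gpnmb/Mmp12 barcodes were set against those of the 1839 Kupffer barcodes. Of 8302 genes measured (at least 10 CPM in 1 sum and 20 UMIs in both), 551 were higher by 2-fold or more (6.64%) and 1606 lower by as much (19.3%), with a median log2 ratio of -0.31 over all measured genes. The barcodes were chosen on this contrast, so the counts of list genes below are descriptions. Median mitochondrial share was 5.54% in Gpnmb/Mmp12 and 8.61% in Kupffer barcodes, a difference that was not tested for its part in the ratios.

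Genes of lipid-associated macrophages were higher in Gpnmb/Mmp12 barcodes. Of 22 listed, 12 were at least 2-fold higher and none lower, with a median log2 ratio of 1.65 (0.49 to 2.78), against -0.31 over all genes. Fabp5 (chr3:10012548-10016607, plus strand) was 46.2-fold higher (42.7 to 50.01). Apoe, the apolipoprotein that macrophages load with cholesterol, had 26818 CPM in Gpnmb/Mmp12 barcodes and 13679.9 CPM in Kupffer barcodes and was 1.96-fold higher (1.94 to 1.98). Some genes of this list were not far apart. The protease gene Ctsd had 4172 CPM in Gpnmb/Mmp12 barcodes and 2896 CPM in Kupffer barcodes, and Ctsb had 6050.2 and 7212 CPM, 1.19-fold lower (1.17 to 1.22). Of list genes outside the naming rule and picked after their values were seen, the tetraspanin gene Cd63 was 19.1-fold higher (17.7 to 20.7), the tetraspanin gene Cd9 10.2-fold higher (9.22 to 11.3), Trem2 4.03-fold higher (3.69 to 4.40) and the secreted phosphoprotein gene Spp1 2.96-fold higher (2.71 to 3.22). Trem2 had a UMI in 203 of 259 early members (78.4%, thinned 37.1%), 405 of 1839 Kupffer barcodes (thinned 8.70%) and none of 73 T/NK barcodes. Early barcodes in neither class held 19233 CPM of Spp1, and the part of free RNA in its level was not tested.

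Of 22 lysosomal genes, 5 were higher and 2 lower, with a median of -0.19 (-0.51 to 0.70). Psap, the precursor of the saposins that help break down sphingolipids, had 10923 CPM in Gpnmb/Mmp12 barcodes and 4622 CPM in Kupffer barcodes and was 2.36-fold higher (2.32 to 2.40). The cysteine protease gene Ctsz was 2.42-fold higher (2.33 to 2.52), while the membrane protein gene Lamp1 was 1.18-fold lower (1.13 to 1.23). Handling of cholesterol and lipid was also split, with 3 of 15 measured genes higher and 5 lower. The lipid droplet gene Plin2 was 1.98-fold higher (1.85 to 2.11), the acid lipase gene Lipa 1.38-fold higher (1.27 to 1.49) and the lipoprotein lipase gene Lpl 1.24-fold lower (1.15 to 1.34). Of 14 genes of iron and haem, 1 was higher and 6 lower. The ferritin heavy chain gene Fth1 was 3.06-fold higher (3.03 to 3.09), and the biliverdin reductase gene Blvrb 1.69-fold lower (1.58 to 1.81).

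MHC class II genes were higher throughout. All 11 measured of 12 listed were at least 2-fold higher, with a median log2 ratio of 2.56 (1.33 to 3.43). H2-Aa, the alpha chain of the I-A molecule that presents peptides to CD4+ T cells, had 13984 CPM in Gpnmb/Mmp12 barcodes and 1969 CPM in Kupffer barcodes and was 7.10-fold higher (6.96 to 7.25). Cd74, the invariant chain that chaperones class II molecules, had 29875 and 4783 CPM and was 6.25-fold higher (6.16 to 6.33). These genes were in nearly every member, with Cd74 in 258 of 259 early barcodes, against 90.8% of Kupffer barcodes and 11 of 73 T/NK barcodes. The protease gene Ctss, which trims the invariant chain, was 2.83-fold higher (2.76 to 2.90). Of 13 MHC class I genes, 6 were higher and none lower. H2-D1 was 2.01-fold higher (1.96 to 2.05), and B2m, the shared light chain, stood at 2372 and 2377 CPM.

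Receptors for chemokines were mostly higher, in 6 of 8 measured genes, with 1 lower. Cx3cr1, the fractalkine receptor of patrolling monocytes and tissue macrophages, had 130.5 CPM in Gpnmb/Mmp12 barcodes and 4.36 CPM in Kupffer barcodes and was 29.9-fold higher (20.4 to 45.5). Ccr2, which draws monocytes from bone marrow, had 80.5 and 5.71 CPM and was 14.1-fold higher (9.86 to 20.6). Ccr2 was found in 60 of 259 members (23.2%, thinned 4.25%), close to its share in T/NK barcodes (19.2%, thinned 6.85%), cells that can carry it themselves. Cx3cr1 was in 108 members (41.7%, thinned 10.0%), 1.20% of Kupffer barcodes and none of 73 T/NK barcodes. Among chemokines themselves 7 of 14 were higher and 4 lower. Cxcl16 was 1.40-fold higher (1.29 to 1.51), Ccl9 2.33-fold higher (2.09 to 2.59), and Ccl6, 2.93-fold lower (2.72 to 3.17). Ccl22, a chemokine of mature dendritic cells, had 112 UMIs in members and 2 in Kupffer barcodes, 177-fold higher (48.0 to 1483), in 14 of 259 members and none of 73 T/NK barcodes.

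Proteases that act on matrix were higher in 7 of 9 measured genes and lower in none, with a median of 1.99 (0.35 to 3.91). The membrane metalloprotease gene Mmp14 had 142 CPM in Gpnmb/Mmp12 barcodes and 9.47 CPM in Kupffer barcodes and was 15.03-fold higher (11.4 to 20.1). Ctsk, a collagen-degrading protease best known from osteoclasts, had 140 and 4 UMIs and was 111-fold higher (42.4 to 413). Plaur, the urokinase receptor gene, was 5.16-fold higher (4.25 to 6.27). The inhibitor gene Timp2 was 1.31-fold lower (1.20 to 1.43). Monocyte genes were higher in 8 of 10 measured and lower in 1, Fn1. The calcium-binding protein genes S100a6 and S100a4 were 9.64-fold higher (8.39 to 11.1) and 9.20-fold higher (7.92 to 10.7), while the fibronectin gene Fn1 was 2.10-fold lower (1.92 to 2.297) in the sums but was found in 68 of 259 members and 86 of 1839 Kupffer barcodes. Chil3, a chitinase-like gene of inflammatory monocytes, had 92 and 2 UMIs and was 146-fold higher (39.2 to 1221). Stress and early response genes also stood higher, in 8 of 21 with 1 lower. The heat shock genes Hspa1a and Hspa1b, near-identical copies whose reads may be split, were 7.46-fold higher (6.78 to 8.22) and 6.12-fold higher (5.56 to 6.73).

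Kupffer identity genes were lower in 19 of 20 and higher in none, with a median log2 ratio of -3.49 (-5.63 to -2.77). The list holds none of the 4 Kupffer genes of the rule, but barcodes were chosen to be low in those, so it is not independent of the rule. Hmox1, which breaks down haem, had 313 CPM in Gpnmb/Mmp12 barcodes and 2156 CPM in Kupffer barcodes and was 6.89-fold lower (6.37 to 7.46). The adhesion gene Vcam1 was 9.60-fold lower (8.54 to 10.8) and the liver X receptor gene Nr1h3 4.75-fold lower (4.25 to 5.33). Timd4, the phosphatidylserine receptor of embryo-derived Kupffer cells, was 54.9-fold lower (31.3 to 106). Cd163, the haemoglobin scavenger receptor gene, had 4 UMIs in members and 3818 in Kupffer barcodes and was 301-fold lower (118 to 1106). Scavenger and efferocytosis receptors were lower in 8 of 14 and higher in none. Axl, which binds dying cells, had 344 CPM in Gpnmb/Mmp12 and 588 CPM in Kupffer barcodes, 1.71-fold lower (1.58 to 1.85). The complement gene C1qa was 1.98-fold lower (1.92 to 2.04), whereas C1qb stood at 3569.8 and 3647 CPM. Of 14 pan-macrophage genes, 3 were higher and 5 lower, with a median log2 ratio of -0.26 (-1.98 to 1.43).

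Genes of other cells differed as well. The 8 hepatocyte markers summed to 478 CPM in early Gpnmb/Mmp12 and 1112 CPM in Kupffer barcodes, the 6 endothelial markers to 21.9 and 499 CPM, with Plvap at 0 in members, and the 9 T/NK markers to 32.4 and 7.82 CPM. Of the hepatocyte sums Trf, the transferrin gene, which is also on the iron list, gave 382 and 712 CPM. Of the endothelial sums Cdh5, also on the Kupffer identity list, gave 8.57 and 424 CPM. Of the T/NK markers, 95.6% of member UMIs were in 2 barcodes. The highest ratios by the bound nearest to 1 were those of Ccl22, Napsa, Fabp5, Ctsk, Chil1, Chil3, Ctse, Slamf7, Slc36a3os, Cst7, Cd209a and Cd93. Napsa, an aspartic protease gene, was 82.4-fold higher (46.5 to 161). Cst7, which encodes the protease inhibitor cystatin F, was 64.0-fold higher (26.5 to 201). The lowest were Cd163, Hbb-bs, Hba-a1, C6, Ccr3, Paqr9, Pcolce2, Fabp1, Kcnj16, Timd4, Cdh5 and Fcna. The haemoglobin genes Hbb-bs and Hba-a1, of red blood cells, were lower by 274-fold (117 to 843) and by at least 99.4-fold in the sums. Hbb-bs was found in only 67 of 1839 Kupffer barcodes and 5 of 259 members, and Hba-a1 in 17 and 0. Cdh5 encodes an endothelial cadherin. How far RNA of hepatocytes, endothelium or red cells in the Kupffer barcodes shaped these ratios was not tested.

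**Figure D3:**
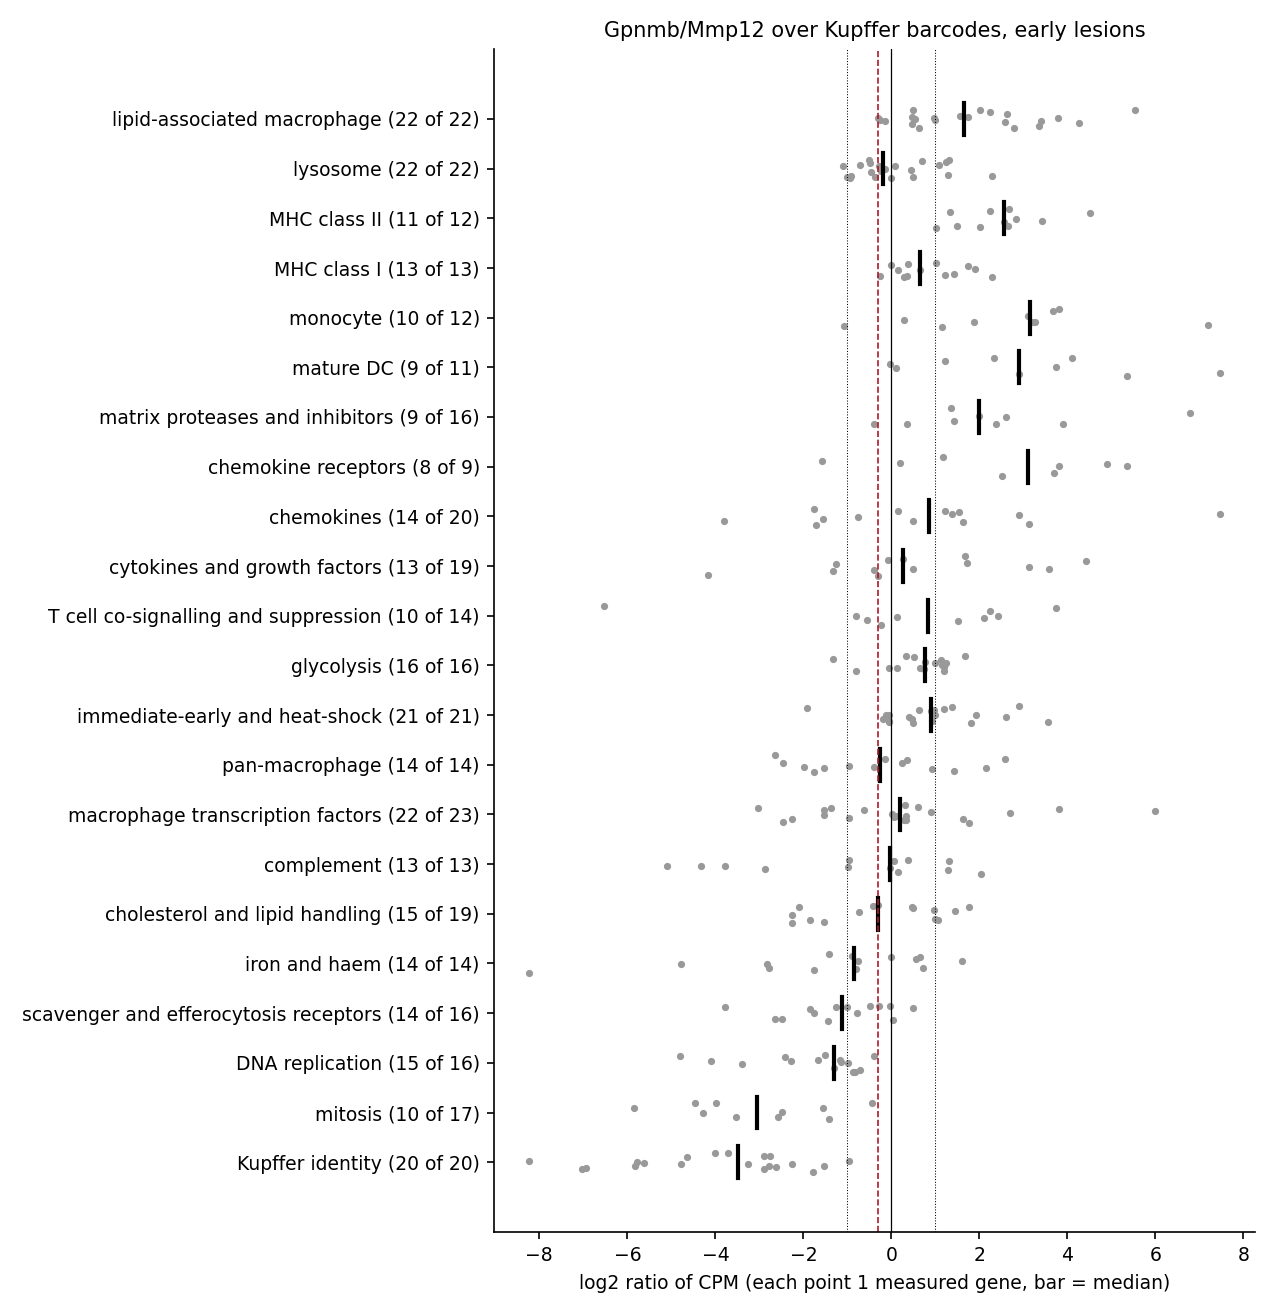
Log2 ratios of CPM, early Gpnmb/Mmp12 over early Kupffer barcodes, for 22 gene lists. Points are measured genes, bars the list medians, the red dashed line the median of all 8302 measured genes (-0.31), and dotted lines 2-fold. MHC class II (median 2.56) and lipid-associated genes (1.65) sit to the right, and Kupffer identity genes (-3.49) to the left.

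The early members varied among themselves. Split by the genes that admitted them, 208 held both Gpnmb or Mmp12 and Itgax or H2-M2, 32 held only Itgax or H2-M2 and 19 only Gpnmb or Mmp12. Fabp5 had 5231, 848 and 3040 CPM in these groups and Trem2 589, 158 and 743 CPM. The 32 barcodes admitted through Itgax or H2-M2 alone thus had the lowest levels of both, with 287 CPM of the monocyte gene Plac8 against 26.0 CPM in the 208. Clustering the 259 barcodes by their whole profile gave 4 clusters of 90, 89, 53 and 27, with median depths between 7137 and 8953.5 UMIs. They are described by their leading genes, with no test and no cell type name, since the same genes formed them.

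The first cluster, of 90 barcodes, was led by the fatty acid carrier gene Fabp4, with 524 CPM against 92.96 CPM in the other members, and by Mgll, Cdo1, Lyz1 and Gas6. Gpnmb reached 3450.3 CPM in it. The second, of 89, was led by Slpi, a protease inhibitor gene, with 1298 CPM against 54.4 CPM, by Fn1 with 708 against 34.1 CPM, and by Plac8, Ccl22 and Chil1. Markers were counted as 2-fold higher after 10 CPM was added to both levels, which damps genes of low level. By this count 7 of 8 mature dendritic, 3 of 8 type 2 dendritic and 3 of 9 monocyte markers were higher in it. Ccl22 was found in 10.1% of its barcodes. The mature dendritic markers summed to 477 CPM in it against 17.4 CPM in the other members, and the monocyte markers to 1162 CPM against 229.98 CPM. The third, of 53, was led by Cd207, the lectin langerin, with 571 CPM against 11.2 CPM but in 32.1% of barcodes, and by Cd72, Ptgs1, Vcam1 and Cd81. Vcam1 had 450.1 CPM against 65.8 CPM in the other members. The fourth, of 27, was led by the metalloprotease gene Mmp19, with 729.8 CPM against 8.86 CPM but in 48.1% of barcodes, and by Marco, Cd5l, Mmp12 and Apoc1. A single barcode held 48.7% of the Mmp19 UMIs of all early members. All 27 barcodes held Mmp12, at 9834 CPM against 448 CPM elsewhere. All 9 Kupffer markers were at least 2-fold higher in it by the same count, with 3002 CPM in sum against 187 CPM. Among these 9 are Clec4f, Vsig4, Cd5l and Marco, which the rule used. The share of all genes 2-fold higher in a cluster was not computed, so the marker counts have no background. In the fourth cluster 19 of the 27 barcodes had 3 or more Kupffer UMIs, against 4, 1 and 2 barcodes in the first 3 clusters. Whether RNA of 2 cells under 1 barcode played a part in the fourth cluster was not tested, and the doublet caller Scrublet marked 0 of the 273 barcodes and too few barcodes in all to be informative.

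**Figure D4:**
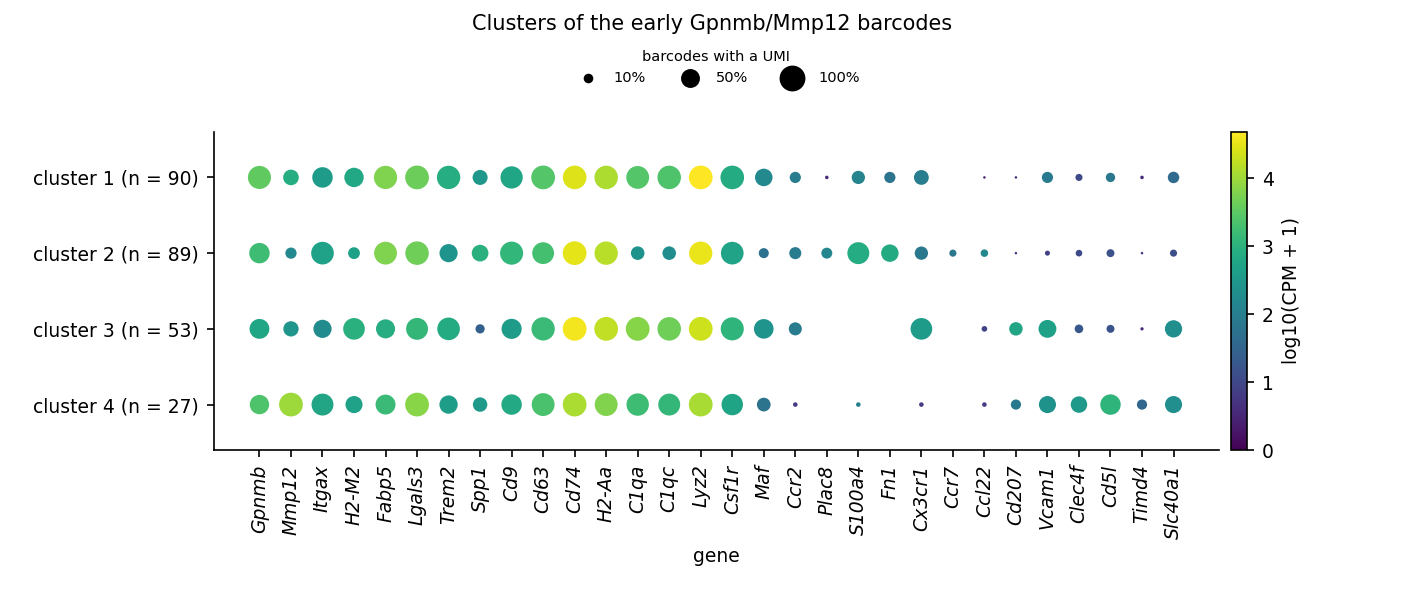
Levels of 30 genes in the 4 clusters of early Gpnmb/Mmp12 barcodes. Dot size gives the percent of barcodes with a UMI and colour gives log10 of CPM plus 1. S100a4 and Fn1 are strongest in the second cluster of 89 barcodes, Cd207 and Vcam1 in the third of 53, and Mmp12, Clec4f and Cd5l in the fourth of 27.

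Of the 14 macroscopic barcodes, 13 had between 14223 and 36358 UMIs and 1 had 3915 UMIs and no Malat1, a nuclear RNA found in the other 13. Fabp5 ran between 0 and 184 UMIs per barcode, C1qa between 0 and 207 and Cd74 between 30 and 967. The barcode with Xcr1 and Clec9a and 1 further barcode had 0 UMIs of C1qa, Fabp5 and Trem2, with 19 and 23 UMIs of Ccr2. The 12 others held C1qa, Fabp5 and Trem2 in each barcode. A difference between stages below rests on these 14 barcodes.

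Between stages the summed UMIs of the 14 macroscopic members were set against those of the 259 early members. Of 7562 measured genes, 675 were higher by 2-fold or more (8.93%) and 903 lower by as much (11.9%), with a median log2 ratio of 0.029. Scaling by the median of ratios shifted every log2 ratio by -0.24 and gave 450 higher and 1288 lower. The list counts below read against those shares. No lipid-associated gene of 22 was 2-fold higher and 5 were lower, with a median of -0.44 (-0.89 to 0.24). Fabp5 was 2.04-fold lower (1.90 to 2.20) and Lgals3 1.53-fold lower (1.43 to 1.64), while Apoe had 36730.2 CPM in macroscopic lesions and 26818 CPM in early lesions. Trem2, picked after its values were seen, was 1.42-fold lower (1.19 to 1.71). Most antigen presentation genes lay within 2-fold. Of 13 MHC class I genes 0 passed 2-fold, and of 11 MHC class II genes 2 were lower. H2-Aa had 9520.0 CPM in macroscopic lesions and 13984 CPM in early lesions, and Cd74 23887 and 29875 CPM.

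Monocyte genes stood lower in macroscopic members, with 8 of 10 at least 2-fold lower and 1 higher. S100a6 had 36.6 CPM in macroscopic lesions and 390.0 CPM in early lesions and was 10.6-fold lower (6.19 to 20.1), and S100a4 was 5.99-fold lower (3.81 to 10.0), with all of its macroscopic UMIs in 1 barcode. Fn1 was 47.1-fold lower (12.99 to 390.2). Ccr2 went the other way, 2.49-fold higher (1.86 to 3.30), and its 71 UMIs lay in 6 of 14 barcodes, 42 of them in the 2 barcodes without C1qa. Among barcodes with C1qa, Ccr2 had 93.1 CPM in 12 macroscopic members and 78.6 CPM in 189 early members, a ratio of 1.18 (0.762 to 1.79), a comparison chosen after seeing the data. The mature dendritic list had 5 of 9 genes lower and 1 higher. Ccl22 had 0 UMIs in macroscopic lesions, at least 6.31-fold lower, and Cd83, a gene of activated antigen-presenting cells, was 2.55-fold higher (2.03 to 3.18). With 14 barcodes, a kind of cell making up 5 of 259 early barcodes could be missed altogether. Chemokines were lower in 8 of 15 and higher in 4, with a median of -1.18, which became 0.70 over the genes still measured when each barcode was thinned to 1000 UMIs. Ccl6 was 2.27-fold lower (1.72 to 3.05) and Ccl9 2.67-fold lower (1.91 to 3.83), against Cxcl16, 1.34-fold higher (1.15 to 1.56). Cx3cr1 was 2.55-fold higher (2.04 to 3.17) and was found in 11 of 14 macroscopic barcodes. Cytokine genes were higher in 4 of 12 and lower in 2. The inflammatory cytokine gene Il1b had 682 CPM in macroscopic lesions and 171 CPM in early lesions and was 3.98-fold higher (3.37 to 4.70), with UMIs in 8 of 14 barcodes, and the stress cytokine gene Gdf15 was 3.64-fold lower (2.48 to 5.57).

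Glycolysis genes were lower in 4 of 16 and higher in none. Just short of 2-fold were Gapdh, 1.89-fold lower (1.70 to 2.11), and Aldoa, 1.89-fold lower (1.61 to 2.24). Heat shock and early response genes were higher in 9 of 20 and lower in none, with a median of 0.98 (0.44 to 1.37). Hspa1a had 1598 CPM in macroscopic lesions and 678 CPM in early lesions and was 2.36-fold higher (2.14 to 2.60), and the chaperone gene Hspa8, short of 2-fold, was 1.52-fold higher (1.42 to 1.63). Kupffer identity genes were split, 5 of 14 higher and 4 lower. Vcam1 was 4.09-fold higher (3.40 to 4.91), Id3, an inhibitor of DNA binding that Kupffer cells need, was 9.78-fold lower (5.28 to 20.5), and Hmox1 stood at 318 and 313 CPM. Matrix proteases were split too, with 4 of 10 higher and 2 lower. Timp2 was 2.01-fold higher (1.72 to 2.35), while Ctsk and Mmp19 had 0 macroscopic UMIs and were lower by at least 7.88-fold and by at least 8.45-fold. In early members 1 barcode held 48.7% of the Mmp19 UMIs. Of 14 pan-macrophage genes 0 were higher and 2 lower, Lyz2 and Csf1r, with a median of -0.23 (-0.87 to 0.49). Lyz2 was 2.299-fold lower (2.24 to 2.36), and Csf1r 2.18-fold lower (1.81 to 2.65), while the complement gene C1qa had 4137 CPM in macroscopic lesions and 2554 CPM in early lesions. Of other lists, Psap was 2.32-fold lower (2.21 to 2.44), Fth1 2.26-fold lower (2.20 to 2.33) and the transcription factor gene Cebpb 3.73-fold lower (3.05 to 4.60).

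DNA replication genes were higher in 5 of 9 measured and lower in none, with a median of 1.57 (-0.28 to 2.23). Pcna, the sliding clamp of DNA polymerases, had 124 CPM in macroscopic lesions and 40.0 CPM in early lesions and was 3.10-fold higher (2.10 to 4.52). The helicase gene Mcm7 was 4.69-fold higher (2.43 to 8.92) and Mcm3 1.62-fold higher (0.889 to 2.81). Of 17 listed mitosis genes only 3 were measured, and Mki67 had 5 and 25 UMIs, so mitosis was barely detectable at this depth. Against Kupffer barcodes the early members were low in both lists, with 10 of 15 DNA replication genes and 9 of 10 mitosis genes at least 2-fold lower. The targeted genes were read in few UMIs. Rb1 had 15 UMIs in macroscopic and 63 in early members, Rbl2 7 and 39, and Rbl1 0 and 1. Tags from the 3' end of a transcript can remain after an internal deletion, so these counts do not check the knockout.

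Among the highest ratios by the bound nearest to 1 were those of AY036118, Slamf1, Nme2, AC160336.1, Gm45509, Ahsg, Cxcl10, Bloc1s1, Lepr, Polr2l and Hes1. Several were also many-fold higher in kept barcodes of neither class, so they move with the library, whose part was not tested. AY036118 was 284-fold higher (143 to 663) in members and 224-fold higher in the other barcodes, Nme2 39.2- and 94.8-fold and Polr2l 10.7- and 11.3-fold. Nme2, AC160336.1 and Bloc1s1 overlap another gene on the genome, so how their reads were assigned is uncertain. Of Gm45509 95% and of Cxcl10 90.9% of macroscopic UMIs were in 1 barcode. Slamf1, a receptor of the SLAM family on immune cells, had 203 CPM in macroscopic lesions and 2.86 CPM in early lesions and was 71.0-fold higher (31.1 to 199.9), in 4 of 14 barcodes, and the other barcodes had a ratio of 2.95. Hes1, a target of Notch signalling, had 225 CPM in macroscopic lesions and 23.8 CPM in early lesions and was 9.47-fold higher (6.57 to 13.8), in 9 of 14 barcodes, while the other barcodes had a ratio of 0.495. Ahsg, a plasma protein gene of hepatocytes, was 24.4-fold higher (11.1 to 61.2) in members and 1.22-fold higher in the other barcodes. It was found in 12 of 14 macroscopic and 8 of 259 early members. The T/NK barcodes, which gauge free RNA, also differed by library, with Ahsg in 17 of 21 macroscopic and 0 of 73 early ones. Its level in the macroscopic T/NK barcodes was 166 CPM, above that in macroscopic members. The hepatocyte markers summed to 1012 CPM in macroscopic and 478 CPM in early members, of which Trf gave 668 and 382 CPM. Apoa1 had 76.1 CPM in macroscopic lesions and 6.67 CPM in early lesions. The part of free hepatocyte RNA was not tested.

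The lowest were Slpi, Clec4e, F10, Fn1, Cd207, Lyz1, Clec4d, Chil1, F7, Fabp4, Ahnak and Mmp19. Slpi had 1 UMI in macroscopic and 1012 UMIs in early members and was 171-fold lower (30.6 to 6760.2). The C-type lectin gene Clec4e, which senses mycobacterial and dead-cell ligands, had 0 macroscopic UMIs and was at least 22.9-fold lower, and Cd207 likewise was at least 13.9-fold lower. F10 and F7 encode clotting factors, and F10 was 58.5-fold lower (16.1 to 484). Fabp4 had 14.1 CPM in macroscopic lesions and 257 CPM in early lesions and was 18.2-fold lower (7.76 to 56.3), whereas in the other barcodes it was 51.7-fold higher. Lyz1, a near-identical copy of Lyz2 whose reads may be split with it, was 29.3-fold lower (9.99 to 143). Slpi, Fn1, Chil1 and Clec4e led the second early cluster, Cd207 the third, Mmp19 the fourth, and Fabp4 and Lyz1 the first, so the lowest genes include leaders of all 4 early clusters. These ratios rest on few macroscopic UMIs, with the 6 of Ahnak in 1 barcode and 1 of Clec4d. With each barcode thinned to 1000 UMIs all 12 genes had 0 macroscopic UMIs. Against the floor of 3 UMIs, 214 CPM, the log2 ratio was at most -1.06 for Slpi, -0.67 for F10, -0.38 for Fn1, -0.43 for Fabp4 and -0.33 for Ahnak. Early levels of Clec4e, Cd207, Lyz1, Clec4d, Chil1, F7 and Mmp19 then lay under that floor, so these genes gave no direction.

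**Figure D5:**
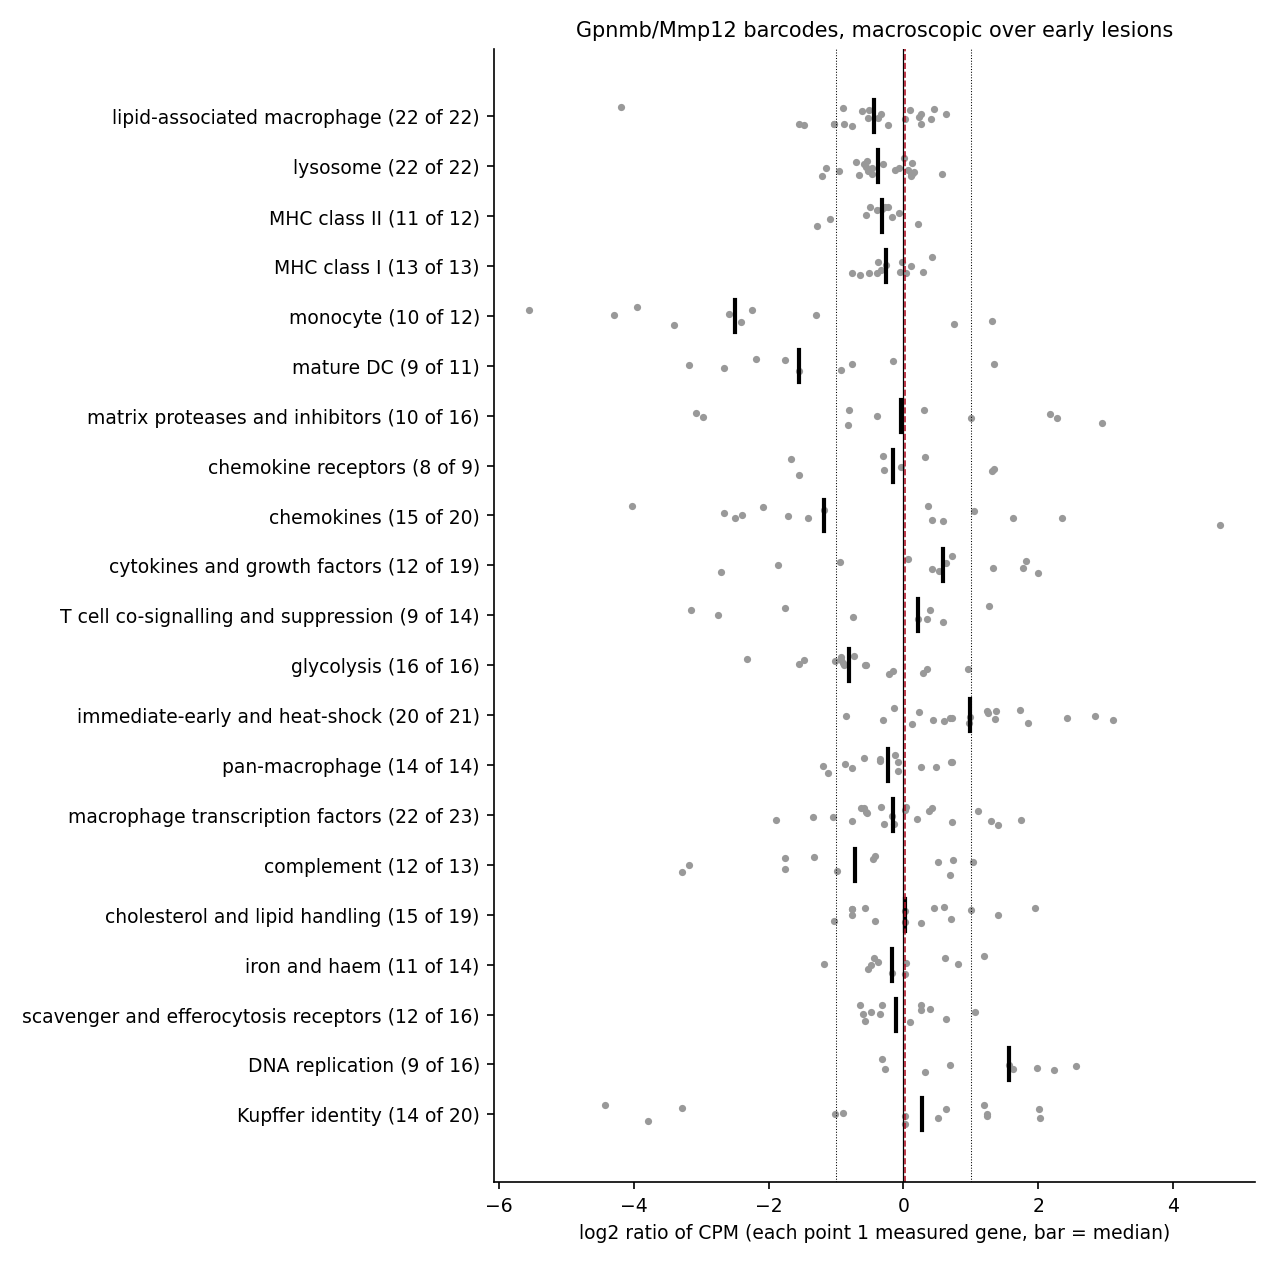
Log2 ratios of CPM, macroscopic over early Gpnmb/Mmp12 barcodes, for 21 gene lists. Points are measured genes, bars the list medians, the red dashed line the median of all 7562 measured genes (0.029), and dotted lines 2-fold. DNA replication genes (median 1.57) and heat-shock genes (0.98) lie to the right, and monocyte genes (-2.50) to the left.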

How the data were processed

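Both samples were single-cell RNA libraries (10x 3' v3). The deposited files hold raw UMI counts per gene and barcode, which the authors made with Cell Ranger 3.0.2 on mm10, per the submitters' processing notes. Seurat 2.3.0 is also named there, with no role, and the sources used here do not give the gene annotation. UMIs were summed per class and library and scaled to CPM (1 UMI is 2.82 CPM in macroscopic members, 0.476 in early members and 0.150 in early Kupffer barcodes). Ratios have exact conditional binomial intervals, levels exact Poisson intervals and shares Clopper-Pearson intervals. Only the ratio intervals were checked on simulated data. A class with 0 UMIs was set at 3, giving a bound, also within list medians. A list median has an order-statistic interval, or its range under 6 genes. Named genes are the 12 highest and 12 lowest measured genes of each ratio, ranked by the interval bound nearest to 1, and up to 4 genes per list with most member UMIs. Some genes that these rules pick are not reported here. The members and lists were chosen with earlier results of these data known. Clusters came from Scanpy 1.11.5 (2000 variable genes, 20 components, 15 neighbours, Leiden resolution 0.6). Scrublet called 4 of 212 macroscopic and 2 of 2461 early barcodes doublets (0.0813%), too few for the caller to have worked on the early library, and none were removed. The limits failed 24 and 656 barcodes on UMIs or genes, 20 and 104 on mitochondrial share and 88 and 62 on Alb. Positions are from GENCODE M21 by gene identifier. Python 3.11.15, NumPy 2.4.6, SciPy 1.17.1 and pandas 2.3.3 were used. Alternatives changed the barcode limits, the marker sum, the scaling and the minimum level, and others, chosen after seeing the data, changed the clustering.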

Additional observations from a re-analysis of the deposited data

How the results depend on the processing

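The share of early Gpnmb/Mmp12 barcodes was 15.02% with at least 2000 UMIs and 500 genes, 13.9% with at most 10% mitochondrial UMIs and 7.04% with 0 UMIs of the Kupffer genes, against 10.8%. The macroscopic share stayed within its interval under every alternative, between 7.08% with no limit on Alb and 16.2% without barcodes under 0.05% Malat1. With no minimum level, 1051 genes were higher and 2649 lower against Kupffer barcodes, and 1160 were higher in macroscopic than in early members. With at least 50 CPM and 100 UMIs, 244 were higher and 671 lower against Kupffer barcodes, and 207 higher and 203 lower between stages. Thinning each barcode to 1000 UMIs left 285 higher and 155 lower between stages, of 1449 measured. Between stages the median log2 ratio of the osteoclast list was -1.12, but 0.024 with 0 UMIs of the Kupffer genes and 0.24 with no minimum, and the chemokine median was -1.18, but 0.70 thinned. The cause was not tested. Of 772 list medians under alternatives, 758 stayed within the list's interval, and of 680 log2 ratios of named genes 614 did. Scaling by the median of ratios shifted log2 ratios against Kupffer barcodes by 0.13. At a clustering resolution of 0.4 the same 4 clusters formed, at 1.0 there were 7, and without the genes of the rule 5. No paired analysis was possible because each stage has 1 library. Depth limits the macroscopic members most: genes under 8.45 CPM, 3 UMIs in their sum, could go unseen.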

Other observations

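Other gene lists were read in the same sums. Against early Kupffer barcodes, T cell co-signalling genes were at least 2-fold higher in 5 of 10 and lower in 1, with Cd274, the ligand PD-L1, 4.31-fold higher (3.37 to 5.53) and Vsir at 194 and 177 CPM. Interferon response genes were higher in 1 of 13 and lower in 3, with Bst2 1.57-fold lower (1.44 to 1.72). Of 22 macrophage transcription factors 5 were higher and 6 lower, and Spi1 (PU.1) had 421 and 388 CPM. Of 4 measured osteoclast genes 2 were higher, with Acp5 1.55-fold higher (1.46 to 1.65). Of 5 measured type 1 dendritic genes 0 were higher and 2 lower, and Irf8 had 307 and 306 CPM. In macroscopic against early members, Cd274 was 8.90-fold lower (2.99 to 43.6), Pou2f2, a transcription factor gene of the non-classical monocyte list, was 2.88-fold higher (2.03 to 4.03), and Clec4b1, a lectin gene of the type 2 dendritic list, was 4.26-fold higher (2.99 to 6.02) in 10 of 14 barcodes. The immunoglobulin gene Ighm, in 10 of 14 and 45 of 259 members, had 116 CPM in macroscopic lesions and 37.1 CPM in early lesions, with Cd79a at 0 UMIs in both.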
